A study of Drosophila melanogaster with 2 samples.

Results

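The genes described here are 10 members of the Dpp and activin signalling pathways of Drosophila, chosen by name, out of 13945 protein-coding genes on the main chromosome arms. They are dpp, tkv, put, Mad, Med, Dad, brk, shn, babo and sax. The measurements are positions and signals of ChIP-seq peaks for Corto, a chromodomain protein genetically linked to the Polycomb and Trithorax groups. Chromatin came from whole embryos of both sexes, 0 to 24 h old, of a transgenic line that stably expresses Corto with GFP at its C terminus, and was precipitated with an antibody against GFP. The 2 libraries are biological replicates of this single group. No second genotype, treatment or age was part of the data, and whole embryos mix all tissues and stages. Summits, the positions of highest signal within a peak, were counted within each gene plus 5 kb on either side, and within 500 bp of each transcription start site (TSS).

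Dpp is a BMP-type ligand of the TGF-beta superfamily that patterns the dorsal side of the embryo and later the imaginal discs. It is bound by the type I receptors Tkv and Sax together with the type II receptor Put, and the receptors phosphorylate the Smad protein Mad, which enters the nucleus with Med. There, Mad and Med act with the zinc finger protein Shn to silence brk, a gene for a repressor of Dpp targets, and they activate Dad, which encodes an inhibitory Smad that feeds back on the receptors. Babo is the type I receptor of the activin branch, which also uses Put.

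The peak windows below show the DNA at some of the summits described for Dad, tkv and brk, and at none of those of shn. They give the dm6 plus strand, read 5′ to 3′ in the RefSeq genome of that build, within 100 bp on either side of the summit. Capitals mark matches, on either strand, to the 8 motifs searched, and a window without capitals has none. In order, they are the promoter-side summit of Dad, the Dad summit with a match to the core of the Brinker site, the strongest summit at any of the 10 genes, the strongest tkv summit, and the nearest summit upstream of brk.
Dad upstream, chr3R:17053487-17053687: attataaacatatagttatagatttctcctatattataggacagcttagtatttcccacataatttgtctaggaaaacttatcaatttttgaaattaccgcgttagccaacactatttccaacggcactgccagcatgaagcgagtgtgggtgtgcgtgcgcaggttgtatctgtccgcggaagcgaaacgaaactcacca
Dad intron, Brinker core, chr3R:17061859-17062059: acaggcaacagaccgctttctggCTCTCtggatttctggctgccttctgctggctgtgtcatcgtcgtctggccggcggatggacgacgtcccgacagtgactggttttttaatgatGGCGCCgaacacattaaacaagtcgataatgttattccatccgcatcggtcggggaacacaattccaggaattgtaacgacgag
Dad intron, strongest, chr3R:17065122-17065322: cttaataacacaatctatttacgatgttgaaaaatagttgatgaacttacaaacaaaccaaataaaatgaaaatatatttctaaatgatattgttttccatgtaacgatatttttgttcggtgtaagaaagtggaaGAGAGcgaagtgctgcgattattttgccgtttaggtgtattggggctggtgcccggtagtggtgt
tkv intron, strongest, chr2L:5254265-5254465: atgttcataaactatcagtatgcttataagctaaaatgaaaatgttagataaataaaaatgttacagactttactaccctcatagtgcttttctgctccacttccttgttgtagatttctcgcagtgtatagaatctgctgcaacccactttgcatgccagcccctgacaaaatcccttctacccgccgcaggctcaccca
brk upstream, chrX:7302410-7302610: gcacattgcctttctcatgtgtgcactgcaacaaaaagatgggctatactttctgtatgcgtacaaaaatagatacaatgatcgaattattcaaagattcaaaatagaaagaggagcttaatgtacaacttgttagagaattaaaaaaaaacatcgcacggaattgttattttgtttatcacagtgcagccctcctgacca

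Corto-GFP summits of the optimal peak set lay mostly at tkv, shn and Dad, and none was found at dpp, put, brk or babo. This set is the authors' list of peaks passing a threshold on the irreproducible discovery rate (IDR). It held 2644 peaks, and 28 of their summits lay within the 10 genes plus 5 kb. Of these 28, shn had 10, tkv had 10 and Dad had 4, so that these 3 genes held 24. Med had 2, and Mad and sax had 1 each. At least 1 summit was thus found at 6 of the 10 genes, where 28.5% of all protein-coding genes had one. Summits within 500 bp of a TSS were found at 3 of the 10, tkv, Dad and shn, where 9.90% of all genes had one.

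**Figure D1:**
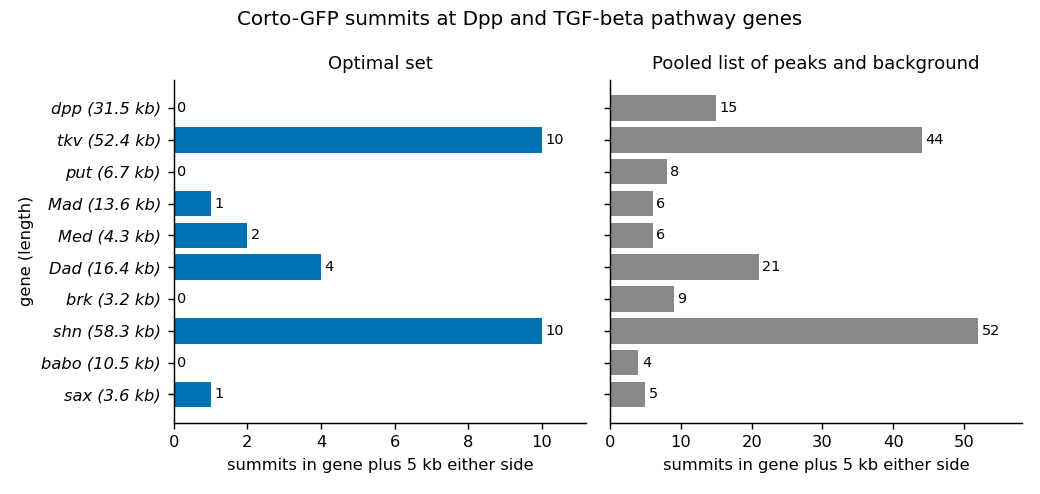
Number of Corto-GFP summits within each gene plus 5 kb on either side, with gene lengths in kb beside the names. The left panel shows the optimal set, where shn and tkv have 10 each and dpp, put, brk and babo 0, and the right panel the pooled list of peaks and background, where each gene has between 4 and 52.

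The genes with many summits are long. Gene length had a median of 12023 bp over the 10 genes and 2166 bp over all protein-coding genes. Of the 6 genes of 10 kb or more, 4 had a summit within the gene plus 5 kb, against 44.2% of all genes of that length. Of the 4 shorter ones, 2 had one, against 26.0% of all shorter genes. The 3 genes with a promoter summit were among the 6 with at least 2 TSSs, and 19.1% of all genes with at least 2 TSSs had such a summit. The 4 genes with 1 TSS had none, where 6.57% of all such genes had one. The 4 genes under 10 kb also had none, against 8.43% of all genes under 10 kb. Per 10 kb searched, the 10 genes together carried 0.932 optimal summits and 5.66 entries of the pooled list, against 0.197 and 2.24 over the whole arms. The arm values include gene-poor and repetitive sequence.

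The ligand gene dpp (FBgn0000490, 2L 2428372 to 2459823, plus strand) had no optimal summit, and the nearest one lay 27229 bp outside it, at 2L 2487052. Of the 631 genes at least as long as dpp, 335 had none either. The pooled list had 15 entries at dpp, with a median signal of 33.4. The strongest, in an intron at 2L 2433609, had a signal of 74.1 and ranked 3206 of 30000, below the weakest optimal peak with 81.2. Its signal was 34.0 in replicate 1 and 42.9 in replicate 2, where it ranked 4474 and 3125. At the promoters, the only pooled entry lay 177 bp upstream of a TSS with a signal of 41.2. It had counterparts in both replicates, which ranked 17565 and 9830.

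Among the receptor genes, tkv (FBgn0003716, 2L 5219000 to 5271384, minus strand), for a type I receptor of Dpp, had more summits than sax, babo and put, which are all shorter. Per 10 kb searched, tkv had 1.60, sax 0.736 and babo and put 0, and 649 of all genes had more than tkv. Only 7 genes in the genome had more optimal summits than tkv and shn, which shared the same count, and the highest count was 16. For a gene of this length the count was also high, since 6 of the 293 genes at least as long as tkv had more, and their median was 1. The 10 summits spread over 23821 bp, with neighbours 613 to 5164 bp apart. All lay between 10.04 and 33.9 kb from the 5′ end of the 52.4 kb gene, so the stretch towards the 3′ end held none. The weakest had a signal of 81.7 and the strongest 183, around a median of 117. Among the strongest 2644 entries of each replicate alone, tkv had 6 in replicate 1 and 11 in replicate 2.

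Of the 4 TSSs of tkv, 2 had a summit within 500 bp. At the TSS at 2L 5242620, the summit lay 9 bp downstream, in the 5′ UTR, with a signal of 123 and with 65.1 and 48.3 in replicates 1 and 2. At another TSS, it lay 161 bp upstream, with a signal of 102 and with 66.3 and 60.6 in the replicates. The TSS at the 5′ end of the gene had its nearest optimal summit 10040 bp away. The strongest tkv summit, at 2L 5254365, was intronic, 10226 bp upstream of the nearest tkv TSS, with a signal of 183 and with 106 and 98.4 in the replicates. The TSS of Cyp4ac1, a cytochrome P450 gene, was slightly nearer to it, at 9636 bp, and was also the nearest one of the summits at 2L 5256180 and 5261344. These had signals of 168 and 152. The first ranked 901 in replicate 1 and 427 in replicate 2, and the second 1767 and 331. The summit at 2L 5252874, with a signal of 125, ranked higher in replicate 1, at 576, than in replicate 2, at 3993. Of the 10 summits, 5 ranked among the strongest 2644 entries of both.

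Of the receptor genes sax, put and babo, only sax had an optimal summit. For sax (FBgn0003317, 2R 7806484 to 7810067), the second type I receptor gene of the Dpp branch, the only summit lay 4766 bp downstream of the gene, at 2R 7814833. It was inside puml, 1755 bp from the TSS of that gene. Its signal of 86.3 was close to the lower end of the optimal set, and the replicates differed, with a signal of 19.7 and rank 12285 in replicate 1 against 60.0 and rank 1492 in replicate 2. It was among the strongest 2644 entries of replicate 2 only. The type II receptor gene put (FBgn0003169, 3R 14619030 to 14625703) had no optimal summit. Its strongest pooled entry, in an intron at 3R 14624232, had a signal of 76.4 and rank 3012, and ranked 2542 in replicate 1 and 3855 in replicate 2, so that with the strongest 2644 entries of replicate 1 alone put had 1 summit. The activin receptor gene babo (FBgn0011300, 2R 8952339 to 8962796) had the lowest level of all, with 4 pooled entries and a highest signal of 57.9. That entry was 1344 bp upstream of babo and 91 bp from the TSS of CG8229. The nearest optimal summit was 41336 bp from babo.

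**Figure D2:**
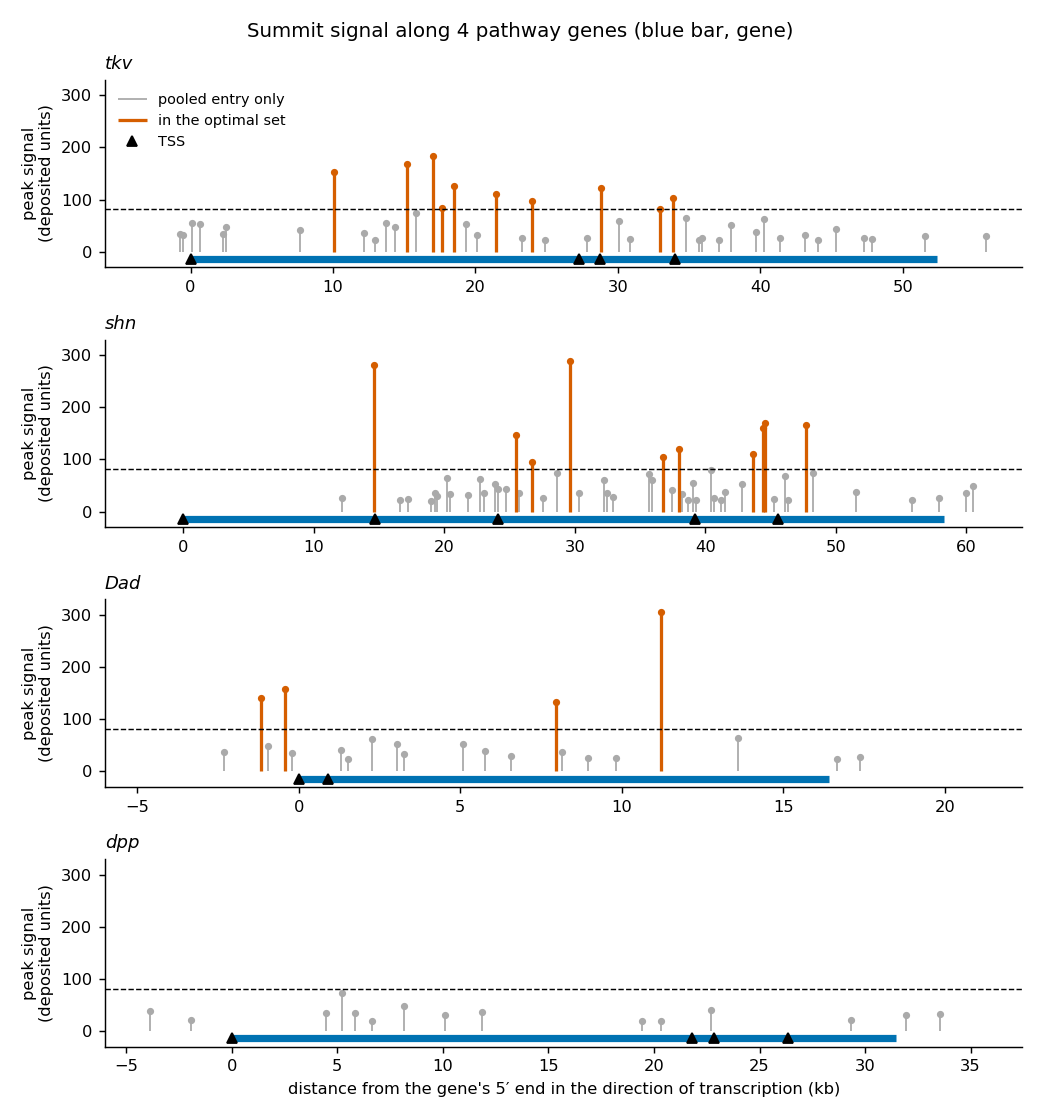
Peak signal in deposited units of each pooled-list summit along tkv, shn, Dad and dpp, against the distance in kb from the gene's 5′ end in the direction of transcription. Orange marks summits of the optimal set, grey other pooled entries, triangles TSSs, the blue bar the gene, and the dashed line the weakest optimal signal of 81.2. In tkv and shn the orange summits lie in the middle of the gene, and dpp has no summit above the line.

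The positively acting Smad genes had summits of other kinds. The Mad gene (FBgn0011648, 2L 3146056 to 3159643, minus strand) had 1 summit, 614 bp downstream of its first TSS in an intron. Its signal of 81.4 ranked 2635 of the 2644 optimal peaks, and the replicates gave 45.0 and 44.3. Of all members' summits it was the weakest, just inside the optimal set. Taking the strongest 2644 entries of a single replicate, Mad had 2 summits in replicate 1 and 0 in replicate 2. The common Smad gene Med (FBgn0288966, 3R 31611046 to 31615375, plus strand) had a summit on either side but none within it. The stronger one, at 3R 31616202 with a signal of 240 and with 133 and 105 in the replicates, lay 827 bp beyond the 3′ end of Med and 42 bp upstream of the TSS of Mnat9. The weaker one, at 3R 31610186 with a signal of 83.4 and with 33.9 and 43.2 in the replicates, lay 860 bp upstream of Med. Its rank was 2511 in the optimal set, and 4489 and 3089 in replicates 1 and 2. This summit was inside CycG, whose product, Cyclin G, is known to bind Corto, and 371 bp upstream of a TSS of that gene. Both summits at Med were thus nearer to a TSS of a neighbour than to that of Med.

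The inhibitory Smad gene Dad (FBgn0020493, 3R 17054007 to 17070408, plus strand) carried the strongest summit of the 10 genes. Its 4 summits had signals of 133 to 307, and all ranked among the strongest 2644 entries of both replicates. In the genome, 94 genes had more summits, and of the 1267 genes at least as long as Dad, 63 did. Per 10 kb searched, 734 of all genes had more than Dad. The upstream pair lay 1156 and 420 bp before the first TSS. The farther one, at 3R 17052851, had a signal of 140 and 59.6 and 83.2 in replicates 1 and 2, and the nearer one, at 3R 17053587, had 157 and 77.1 and 69.1. The intronic pair lay 7062 and 10325 bp downstream of the nearest Dad TSS. The first, at 3R 17061959, had a signal of 133 and 51.8 and 76.0 in the replicates. The second, at 3R 17065222, had 307 and ranked 107 in the optimal set, with 164 and 139 and ranks of 86 and 160 in the replicates. The nearest TSS to this last summit was that of Ns1, a nucleostemin gene, at 7453 bp.

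The Brinker and Schnurri genes, which encode the nuclear factors at the end of the pathway, had 10 summits at shn and none at brk. At shn (FBgn0003396, 2R 11159086 to 11217394, plus strand), 10 summits spread over 33121 bp, with signals of 94.7 to 288 and a median of 154. All were in introns. Of the 244 genes at least as long as shn, 6 had more summits, and 769 of all genes had more per 10 kb searched. The summit at 2R 11173688 lay 115 bp upstream of the second of 5 TSSs and had a signal of 281, with 136 and 151 in the replicates. The strongest, at 2R 11188759, was 5535 bp downstream of a TSS, with a signal of 288 and with 116 and 177 in the replicates. Both ranked among the strongest 264 peaks of the optimal set. Summits at 2R 11203482 (signal 160) and 11203699 (171) were 217 bp apart and counted as 1 where summits within 500 bp were merged. Replicate 1 gave 63.8 and 81.7 at this pair, and replicate 2 gave 112 and 78.8. Of the 10 shn summits, 7 ranked among the strongest 2644 entries of both. The first TSS of shn had its nearest optimal summit 14602 bp away.

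The intronless gene brk (FBgn0024250, X 7307939 to 7311132, plus strand) had no optimal summit within 5 kb, but the limit decided this count. A summit at X 7302510, printed above, lay 5429 bp upstream of its TSS, just outside, and its nearest TSS was that of brk. Its signal was 139, with 53.9 in replicate 1 and 74.7 in replicate 2. Another lay 7187 bp upstream (X 7300752, signal 85.2) and one more 6535 bp downstream, nearer to the TSS of Atg5 (X 7317667, signal 91.0). Within 5 kb, 9 pooled entries were found. The strongest, 1462 bp upstream of brk, had a signal of 70.01 and differed between the replicates, with rank 15462 in replicate 1 and 1769 in replicate 2, where it was among the strongest 2644. On the inner side of the limit, the outermost summit was that of sax, at 4766 bp.

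The promoters differed in the rank of their strongest entry. The strongest pooled entry within 500 bp of a TSS had rank 133 at shn, 630 at Dad and 1124 at tkv, each inside the optimal set. The next was at put, with a signal of 61.5 and rank 4494, followed by brk with 43.2 and rank 8404, dpp with rank 9129 and Mad with 32.0 and rank 13928. Pooled entries were thus present at 7 of the 10 promoters, against 39.1% of all genes. At Med, babo and sax, only replicate 1 had an entry, at ranks from 10135 to 24731. Taking as many of the strongest entries of each replicate alone as the optimal set holds, tkv, Dad and shn had a promoter summit in either one, against 11.8% of all genes in replicate 1 and 8.78% in replicate 2.

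**Figure D3:**
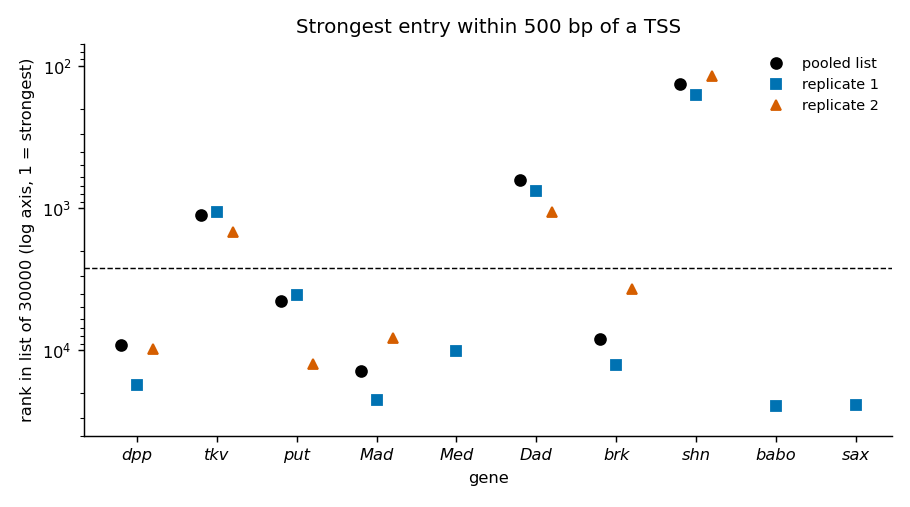
Rank of the strongest entry within 500 bp of a TSS of each gene in the pooled list and in both replicate lists, each of 30000 entries, on a log axis with the strongest at the top. The dashed line is rank 2644, the size of the optimal set. The entries at tkv, Dad and shn lie above it in all 3 lists, and no list has any of the other 7 genes above it.

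Most summits were intronic, as was most of the length of the genes. Inside the 4 genes with a summit within their span, tkv, shn, Dad and Mad, 22 of 23 summits were in introns and 1 in a 5′ UTR, while introns made up 83.8% of these genes. None of the 23 was in coding sequence. A TSS of any gene lay within 500 bp of 6 of the 28 summits, and none lay within 2 kb of 13. The nearest TSS belonged to the pathway gene itself for 21 summits and to a neighbour for 7.

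Both replicates had entries near these summits. All 28 had an entry of both replicates within 200 bp, at median distances of 14 bp in replicate 1 and 10 bp in replicate 2. The farthest were in replicate 1, at 153 bp from the sax summit and 151 bp from the shn summit at 2R 11197051. Among all optimal summits, 96.5% had entries in both. Both replicates ranked 17 of the 28 (60.7%) among their own strongest 2644, against 53.9% of the whole set. The scale of the signal is not stated, so signals of the replicates are set side by side and compared by rank within each list. The optimal set was made from these replicates, so the matches are partly built in. At shn, replicate 2 gave 43.2 to 177 with a median of 82.3, and replicate 1 gave 39.7 to 136 with a median of 63.5. At tkv, the medians were 60.1 and 58.8. The shn summit at 2R 11206809 had a signal of 47.5 and rank 2192 in replicate 1, and 128 and rank 204 in replicate 2.

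**Figure D4:**
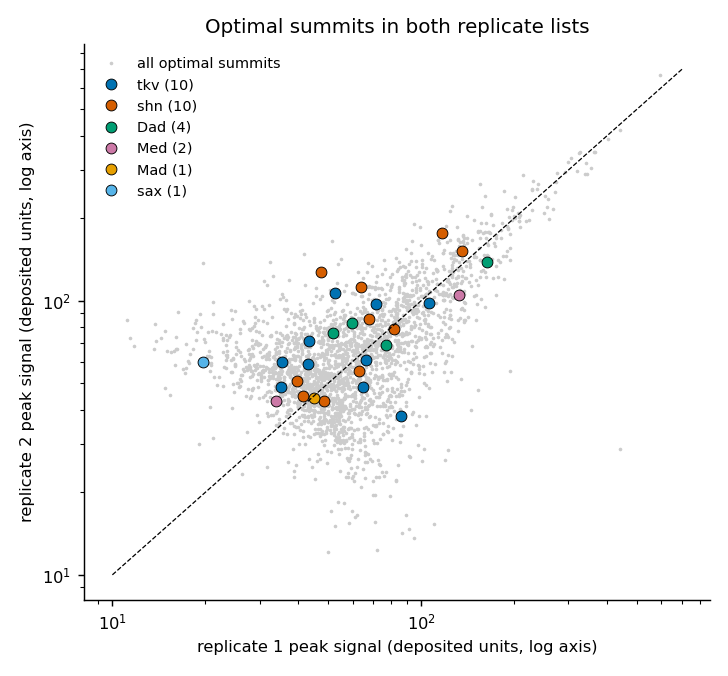
Replicate 2 against replicate 1 peak signal, both in deposited units on log axes, for the entry nearest to each optimal summit. Coloured points are the 28 summits at 6 pathway genes, grey points all other optimal summits, and the dashed line marks equal signal. The 28 lie within the cloud of the whole set, with the sax summit at its left edge.

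Signals of the 28 summits ran from 81.4 to 307 with a median of 129, where the whole set had a median of 113 and a maximum of 1209. Above the median of the whole set were 17 of the 28, and 4 were among its strongest 264: 2 at shn, 1 at Dad and the one at Mnat9 next to Med. Of all 170 pooled entries at the 10 genes, the optimal set took 16.5%, against 8.81% of the whole list. The share was highest at Med, with 33.3% (2 of 6 entries), followed by tkv with 22.7%, sax with 20% (1 of 5), shn with 19.2%, Dad with 19.05% and Mad with 16.7% (1 of 6). It was 0 of the 15 at dpp, 9 at brk, 8 at put and 4 at babo.

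Motif counts at the 28 summits are given beside the shares over all optimal summits. Within 100 bp of the 28 summits, the sequence had a median GC content of 38.8%, against 36.1% over all optimal summits. GAGAG, the core of the site of GAGA factor, was present in 9 of the 28 (32.1%) and in 30.4% of all optimal windows. These 9 were at Dad (3), tkv (2) and shn (4). GGCGCC, the core of the site of Brinker, was present in 1, the Dad summit at 3R 17061959, and in 1.21% of all windows. The site of DREF, TATCGATA, was present in 1, the tkv summit at the TSS at 2L 5242620, and in 2.42% of all windows. No window matched the Mad site GCCGNCGC (2.31% of all windows), the palindromic Smad site GTCTAGAC (0.0378%), the M1BP site GGTCACAC (1.06%) or the Zelda site CAGGTAG (1.06%). The silencer element that Schnurri, Mad and Med bind together was in none of the 28 and in 0 of the 2644 windows. Beyond the 5 kb limit of brk, the summit at X 7317667 held GGCGCC, that at X 7300752 held GAGAG, and that at X 7302510 held no match. Both strands were searched, GAGAG matches can overlap each other in repeats, and a match does not show that a factor binds there.

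Promoter summits were also found at other genes of the pathway. A wider list of Dpp, BMP and activin genes, chosen by name with earlier results of these data known, held 39 genes besides the 10. Of these, 8 had a summit within 500 bp of a TSS (20.5%, against 9.90% of all genes), and 22 had one in the gene plus 5 kb (56.4%, against 28.5%). The median length of the 39 was 7566 bp, against 2166 bp over all protein-coding genes. Longer genes more often had a summit. Of the 2704 genes at least as long as put (6674 bp), 17.9% had a promoter summit and 42.3% had one in the gene plus 5 kb. By role, the 8 were 1 of the other 6 ligand genes, the other type II receptor gene, 3 of 11 extracellular regulators, 1 of 2 intracellular modulators and 2 of 16 targets.

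The ligand gene was mav, whose summit 68 bp from the TSS had a signal of 87.5 and ranks of 2454 and 3263 in replicates 1 and 2. The receptor gene wit, for the type II receptor best known at the neuromuscular junction, had a signal of 101 at 44 bp upstream, with 36.5 and 65.2 in the replicates. That gene, of 7566 bp, had 3 summits within its span plus 5 kb. The heparan sulfate proteoglycan genes dally and dlp, which shape the spread of Dpp, had signals of 103 and 82.0. The dlp summit ranked 1326 in replicate 1 and 10211 in replicate 2. The summit at magu, which encodes a secreted regulator of the Dpp gradient, had a signal of 185, with 87.6 and 107 in the replicates. The kinase gene nmo had 110, at a summit nearer to the TSS of Pop4. Among targets, tin, the heart mesoderm homeobox gene, had 234, with 113 and 129, and ush, a GATA cofactor gene, had 139, with 98.4 and 44.4. Ush, of 64341 bp, had 11 summits in the gene plus 5 kb and dlp, of 39009 bp, had 7. The long genes nmo (75102 bp) and dally (63688 bp) had 2 and 4. The Smad gene of the activin branch, Smox, had 1 summit in the gene plus 5 kb and none at its promoter.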

How the data were processed

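Per the text notes deposited with the files, the authors made a list of peaks and background for each replicate and for both pooled, each together with a control, and derived the optimal set from these lists. Chromatin was sonicated to 200 to 800 bp, per the labels. For the aligner, the peak caller and the threshold, nothing is given in the sources used here. The control was not analysed here. The deposited signal score of each narrowPeak entry has no stated scale and was used as the authors' value, to describe and rank entries within a list. Other deposited values used were summit offsets. Depth is unknown, since no read counts were used, and the precision of a single peak therefore cannot be given.

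From there, summits (start + offset + 1, dm6) were counted with Python 3.11.15 and pandas 2.3.3 against Ensembl release 115 genes, with 19607 TSSs of protein-coding genes. A summit within 500 bp of a TSS counted for the promoter, one within the gene plus 5 kb for the gene, and entries within 200 bp for a match between lists. Distances to the nearest TSS consider protein-coding genes. Entries were ranked by signal. The optimal peaks were the 2644 strongest pooled entries. With 1 group there is no contrast, so no test was made and shares over all genes are given instead. Counting functions were tested on simulated data. The dm3 lists were not used.

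The members, the wider gene list and the motifs were chosen with earlier results of these data known. Genes named are the members, genes of the wider list with a promoter summit, and the gene of the nearest TSS of each summit at a member. Also named, chosen after their values were seen, are Atg5, CG8229, Pop4 and Smox. Alternatives changed the peak set, the windows and the merging of summits.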

Additional observations from a re-analysis of the deposited data

How the results depend on the processing

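The 3 genes with a promoter summit were tkv, Dad and shn also among optimal peaks above the median signal, with either replicate alone, with summits merged and with summits assigned only to the closest TSS. Beside these, 5.47% of all genes had one among peaks above the median signal, 9.89% with summits merged and 7.66% with the closest TSS only. Without replicate 1, the share of all genes was 8.78%, and without replicate 2 it was 11.8%. The count was 2 within 250 bp (7.72% of all genes), and 5 within 1000 bp (12%), which adds Mad and Med. With the genes taken apart after seeing the data, it was 0 for genes under 10 kb and 0 for genes with 1 TSS. Genes with a summit in the gene plus flanks were 4 with no flank (7.49% of all genes), 5 with 2 kb (19.4%), 7 with 10 kb (40.4%) and 4 among peaks above the median signal (18%), against 6 as reported, and 2 among genes under 10 kb. Leaving out a replicate gave 6 each time (27.5% and 32.2%), but not the same genes. Present both times were tkv, Med, Dad and shn. Without replicate 1, brk and sax were added, and without replicate 2, put and Mad. The 28 summits became 17 among optimal peaks above the median signal, and between 23 and 33 with other flanks or merging. Without a replicate they were between 24 and 30. Matches in both replicates were 26 within 100 bp, 28 within 500 bp, and 17 among the strongest entries of each. At tkv, the count of 10 was 6 without replicate 2 and 11 without replicate 1, and 5 among peaks above the median signal. The summits at Mad, Med and sax, and the zeros of put and brk, changed with the replicate used. No summit was gained by dpp or babo under any of these. GAGAG was present at 4 summits within 50 bp and at 11 within 150 bp. The share over all optimal windows is given only for 100 bp, so these 2 counts cannot be set against one. All transcripts of these genes are annotated as protein-coding, so restricting TSSs to those changed nothing. Unknown depth limits how the weaker entries at dpp, put, brk and babo can be read.

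No paired analysis was possible because the data hold 1 group and no test.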
